A study of Rattus norvegicus with 6 samples.

Results

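The genes described here encode the heat shock proteins, their J-domain partners (DNAJ), the cytosolic chaperonin CCT and the BAG co-chaperones. They were chosen by gene symbol alone: names that start with Hspa, Hspb, Hspd, Hspe, Hsph or Dnaja, Dnajb, Dnajc, Cct or Bag and a number, with Hsp90a and Tcp1, and without Hspa5, Dnajb9 and Dnajc3, which belong to the stress response of the endoplasmic reticulum. This gave 81 of the 21648 genes in the table, and 74 of the 81 had enough reads to be tested. The RNA came from neonatal rat ventricular myocytes, a primary culture of heart muscle cells from wild-type pups at postnatal day 3. One group had 10 µM of 915, an agonist of the estrogen-related receptors (ERR), for 72 h, and the other had the DMSO vehicle for the same time, with 3 libraries in each group. Both groups shared the same preparation: fibroblasts were reduced by letting them attach to plastic first, bromodeoxyuridine was in the plating medium, and the later medium had insulin, transferrin and selenium in place of serum. The other agonist that the study's design names, 332, was not analysed here.

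Chaperones bind proteins that are not folded and keep them from clumping. Hsp70 proteins do so in cycles of ATP use; a J-domain protein brings the client and starts the cycle, and a nucleotide exchange factor, such as an Hsp110 or BAG protein, ends it. Hsp90 finishes the folding of kinases and receptors, the chaperonins Hsp60 (mitochondria) and CCT (cytosol) enclose their clients in a barrel, and small heat shock proteins hold unfolded clients without using ATP. In heart muscle the small heat shock proteins and BAG3 are known for the upkeep of the sarcomere, where BAG3 joins HSPB8 and Hsp70 to send damaged filament proteins to autophagy. Heat shock factor 1 (HSF1) switches on the stress-inducible members of these families, and ERRs are nuclear receptors that drive mitochondrial genes.

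Per library, the counts in the table summed to between 30639244 and 38078137 with 915 and between 36799845 and 40010826 with DMSO. Levels are given as CPM, counts scaled to library totals of equal size, as deposited. Changes are log2 fold changes of 915 over DMSO with their standard error (SE), from edgeR's two-sided quasi-likelihood test, and a gene was called higher or lower where its Benjamini-Hochberg adjusted p over all 14253 genes tested was under 0.05. A gene with a count of 0 may have had up to 3, which is 0.0698 to 0.0917 CPM depending on the library, counting error only. Of all genes tested, 49.8% were called, 24.3% as higher and 25.5% as lower, so a call as such is common in these data. At a size of at least 1.5-fold, 5.33% were called higher and 12.8% lower. Of 12 listed cardiac myocyte markers, 11 were found in the deposited data. All 11 were called higher with 915, with log2 fold changes of 0.23 to 1.07. Their summed level was 32112 to 32516 CPM with 915, against 22590.0 to 23714 CPM with DMSO.

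Chaperone genes were mostly a little higher with 915. Of the 74 tested, 36 (48.6%) were called higher, 8 (10.8%) were called lower and 30 were not called. Over all genes tested, 24.3% were called higher and 25.5% lower. A positive log2 fold change was found in 59 of the 74, beside 6961 of all 14253 genes tested. The shifts were small: the median log2 fold change was 0.18, beside -0.01 over all genes tested, and the median size without sign was 0.21, beside 0.27 over all genes. At least 1.5-fold higher were 4 genes, Bag3, Hspb7, Hspb8 and Hspb6, and at least 1.5-fold lower were 4 others, Dnajb13, Hspa12b, Hspa12a and Hspb3. Over all genes tested, 5.33% were called and at least 1.5-fold higher and 12.8% lower, so the 4 large rises are no more than the usual share. In 30 of the 36 genes called higher, every 915 library was above every DMSO library, and in all 8 called lower every 915 library was below. The same share over all called genes was not counted, so this separation is not read as a trait of the chaperones. The count of genes called higher was 29 to 39 when 1 library was left out, and the count called lower fell to 5 without 915 library 1, without DMSO library 1 or without DMSO library 3.

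The families differed in how many members were called and in which direction. The 4 tested DNAJA genes had the highest median among families of more than 2 tested genes, at 0.35, with 3 called higher and 1 lower. The small heat shock proteins came next, with a median of 0.26 and 5 higher, 1 lower and 2 not called of 8. In the DNAJB family 6 of 9 were higher and 1 lower (median 0.21), in the DNAJC family 9 of 22 were higher and 2 lower (median 0.16), and of the BAG genes 3 of 6 were higher and none lower (median 0.16). CCT genes had a median of 0.12, with 4 of 10 higher and none lower. In the Hsp70 family 3 of 11 (27.3%) were higher and 3 (27.3%) lower, near the 24.3% and 25.5% over all genes tested. Another 5 were not called, and the family median was 0.04. That median moved to between 0.0030 and 0.21 when 1 library was left out, with the lowest value without DMSO library 1 and the highest without 915 library 3, and values of 0.0055 without 915 library 2 and 0.20 without DMSO library 2. Hsp90, with 1 of 2 higher, and the single tested genes of Hsp110 and of the mitochondrial chaperonin, both higher, had medians of 0.15, 0.18 and 0.18. Differences between families were not tested.

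**Figure D1:**
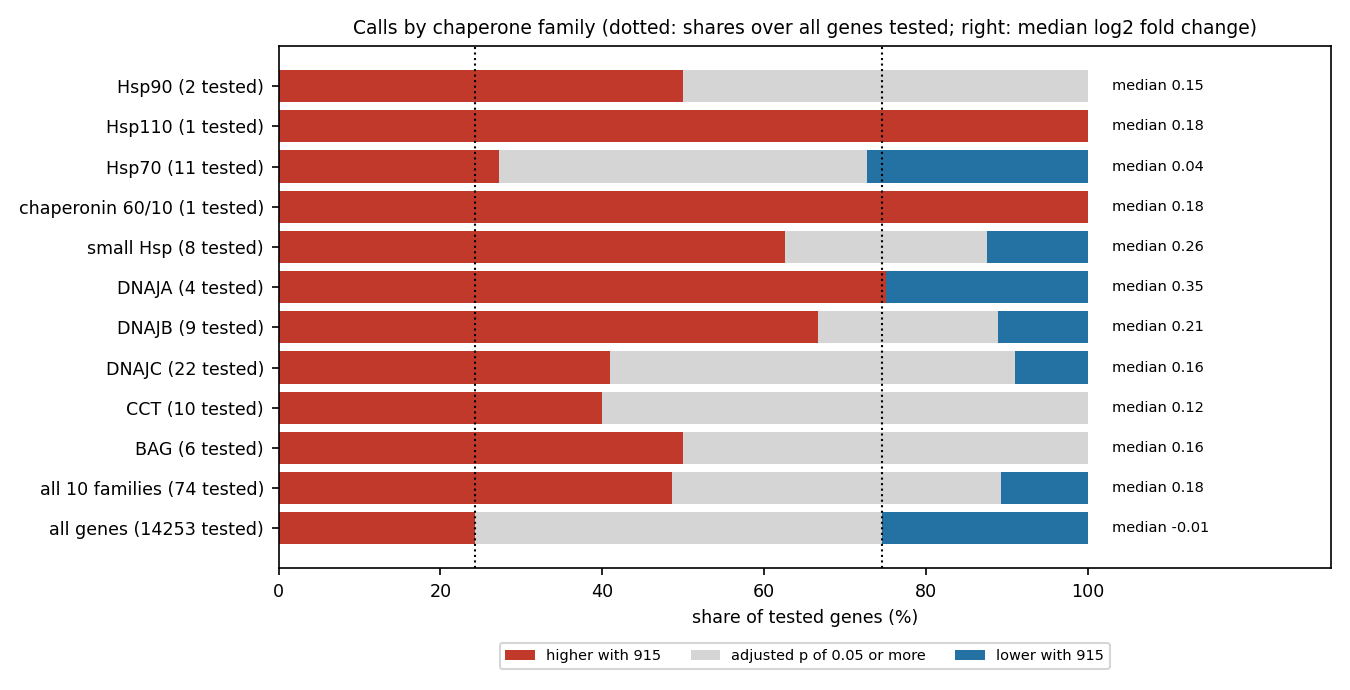
Share of tested genes (x axis, %) called higher, called lower or not called with 915 against DMSO, for each chaperone family, for the 10 families pooled and for all genes tested (y axis), with dotted lines at the shares over all genes and the median log2 fold change at the right. DNAJA, DNAJB and the small heat shock proteins have 75.0%, 66.7% and 62.5% of their tested genes called higher. Hsp70 has 27.3% called higher and 27.3% called lower, near the 24.3% and 25.5% over all genes.

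**Figure D2:**
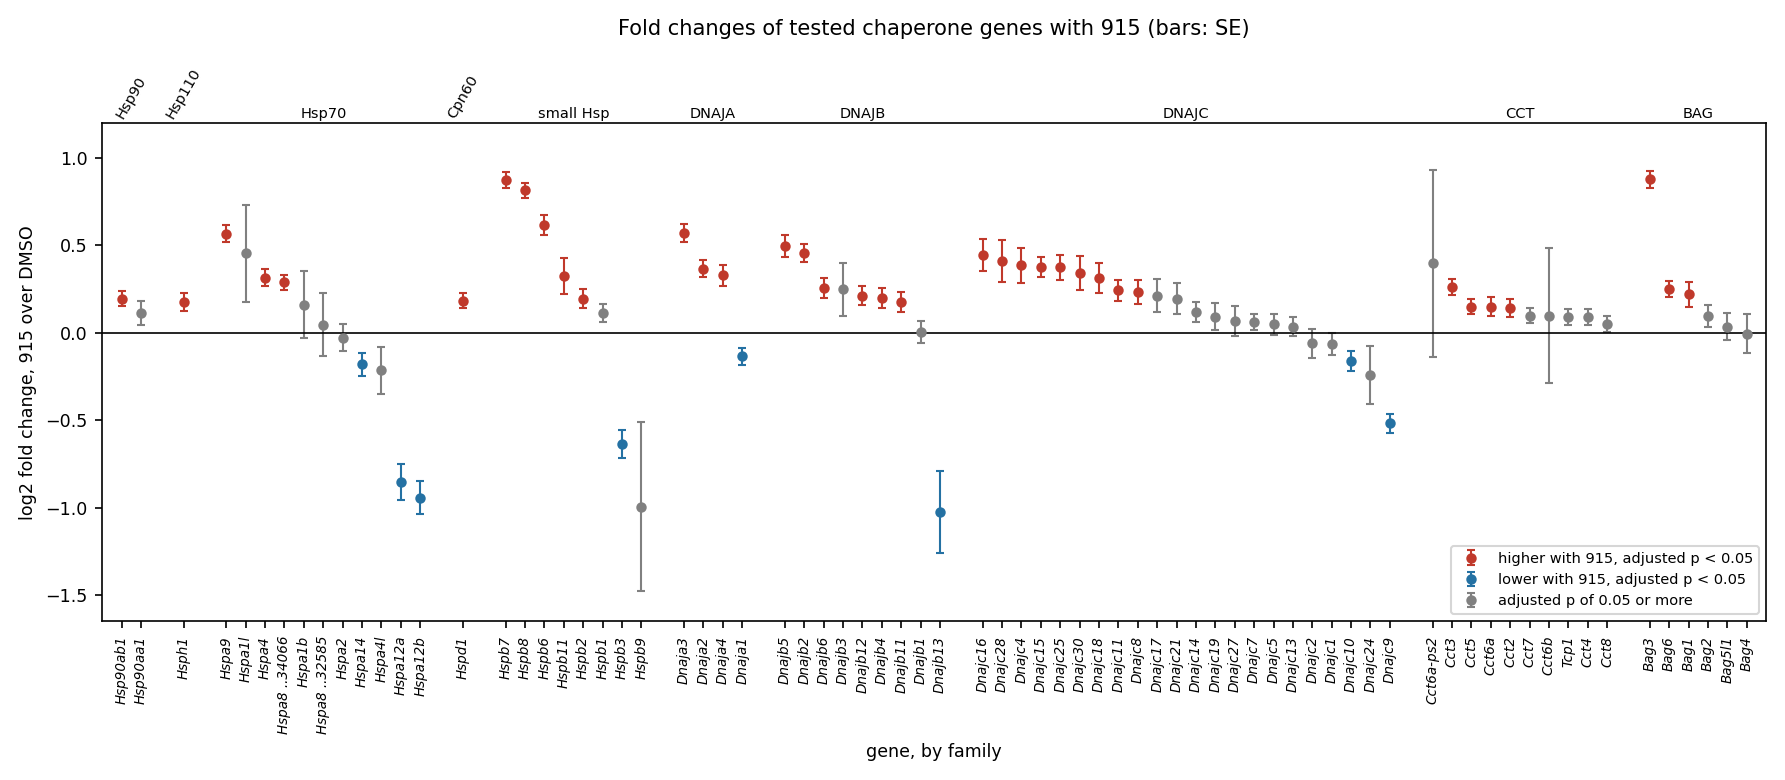
Log2 fold change of 915 over DMSO (y axis) with its SE for each of the 74 tested genes, grouped by family (x axis) and marked by call. Where a symbol carries a suffix, it is the end of the Ensembl identifier of a symbol held by more than 1 gene. Bag3, Hspb7, Hspb8 and Hspb6 stand highest at 0.88, 0.87, 0.81 and 0.62, and Dnajb13 is the lowest called gene at -1.03.

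The small heat shock proteins of striated muscle held the largest increases, together with Bag3. Bag3 (ENSRNOG00000020298), the co-chaperone that links Hsp70 to small heat shock proteins, had 325, 326 and 349 CPM in the 915 libraries, against 187, 191 and 185 CPM in the DMSO libraries. The groups were far apart, with 334 ± 13.6 CPM with 915 and 188 ± 3.16 CPM with DMSO (SD, n = 3 each), a log2 fold change of 0.88 (SE 0.0480, adjusted p = 3.0e-09), or 1.84-fold. Hspb8 (ENSRNOG00000022392), whose product is BAG3's direct partner, had 343, 342 and 344 CPM with 915, against 200.2, 204 and 200.5 CPM with DMSO. Its libraries were nearly identical within each group, at 343 ± 1.17 and 202 ± 2.26 CPM, and it rose 1.76-fold (log2 0.81, SE 0.0434, adjusted p = 2.35e-09). Hspb7 (ENSRNOG00000029079), a heart-rich member that binds filamin and actin filaments, had 1253, 1248 and 1335 CPM with 915, against 705, 728 and 731 CPM with DMSO. The lowest 915 library lay above the highest DMSO library by a wide margin, and the log2 fold change was 0.87 (SE 0.0471, adjusted p = 2.69e-09), or 1.83-fold. Hspb6, also called Hsp20, a muscle protein phosphorylated by protein kinase A, had 244, 237 and 245 CPM with 915, against 158, 178 and 154 CPM with DMSO. DMSO library 2 was the highest of its group but stayed below each 915 library, and Hspb6 rose 1.53-fold (log2 0.62, SE 0.0575, adjusted p = 7.3e-07).

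The rest of that family moved less or the other way. Hspb2, a muscle member that pairs with HSPB3, had 131, 127 and 141 CPM with 915, against 118, 124 and 118 CPM with DMSO, a small rise without overlap (log2 0.20, SE 0.0537, adjusted p = 0.00758). Its partner Hspb3 (ENSRNOG00000010992) fell: it had 16.3, 15.2 and 17.0 CPM with 915, against 24.0, 27.6 and 26.5 CPM with DMSO. All 3 of its 915 libraries lay below the DMSO libraries, with a log2 fold change of -0.63 (SE 0.0808, adjusted p = 1.63e-05), 1.55-fold lower. Hspb1, also called Hsp27, the stress-inducible member made in most cell types, had 429, 402 and 445 CPM with 915, against 395, 427 and 398 CPM with DMSO. The groups overlapped and it was not called (log2 0.11, SE 0.0529, adjusted p = 0.0891), with an adjusted p between 0.0147 and 0.303 over the 10 alternatives, under the threshold only without 915 library 2 or without DMSO library 2. Hspb11, an intraflagellar transport protein despite its name, was called higher at 11.1 to 12.0 CPM with 915, against 8.47 to 10.6 CPM with DMSO, but not without 915 library 3 or DMSO library 1 (log2 0.32, adjusted p = 0.0181, and 0.00924 to 0.0916 over the alternatives). Hspb9, a testis gene in humans and mice, had 4 to 12 counts per library with 915 and 14 to 20 with DMSO and was not called (adjusted p = 0.103, and 0.0477 to 0.314 over the alternatives, the lowest without 915 library 3). Cryab, the alpha-B crystallin of the same protein family, carries another kind of symbol and was not among the 81; it averaged 1681 ± 30.3 CPM with 915 and 1201 ± 86.6 CPM with DMSO (log2 0.53, adjusted p = 1.92e-06).

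These cultures are mixtures, and a bulk library cannot tell fewer cells of a type from less RNA per cell. Marker lists of other cell types moved with the treatment, opposite to the myocyte list given above. Fibroblast markers summed to 15529 to 16327 CPM with 915, against 28431 to 30248 CPM with DMSO, with 9 of 12 called lower and 2 higher. Smooth muscle markers summed to 738 to 790.3 CPM with 915, against 1770 to 1909 CPM with DMSO (5 of 6 lower). Macrophage markers summed to 111 to 134 CPM with 915, against 219 to 237 CPM with DMSO (5 of 10 lower, 5 not called). Lyz2 was the largest part of the macrophage sum, at a mean of 60.1 CPM with 915 and 128 CPM with DMSO. Endothelial markers summed to 57.5 to 57.9 CPM with 915, against 72.9 to 76.0 CPM with DMSO (5 of 9 lower, 1 higher). Over all genes tested, 25.5% were called lower and 24.3% higher. No marker of these lists that was found in the deposited data was at 0 in any library. Of those listed, 12 of 13 fibroblast, 6 of 8 smooth muscle, 9 of 10 endothelial and 10 of 11 macrophage markers were found. Their part in the changes of muscle-rich or widely made chaperones was not tested.

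**Figure D3:**
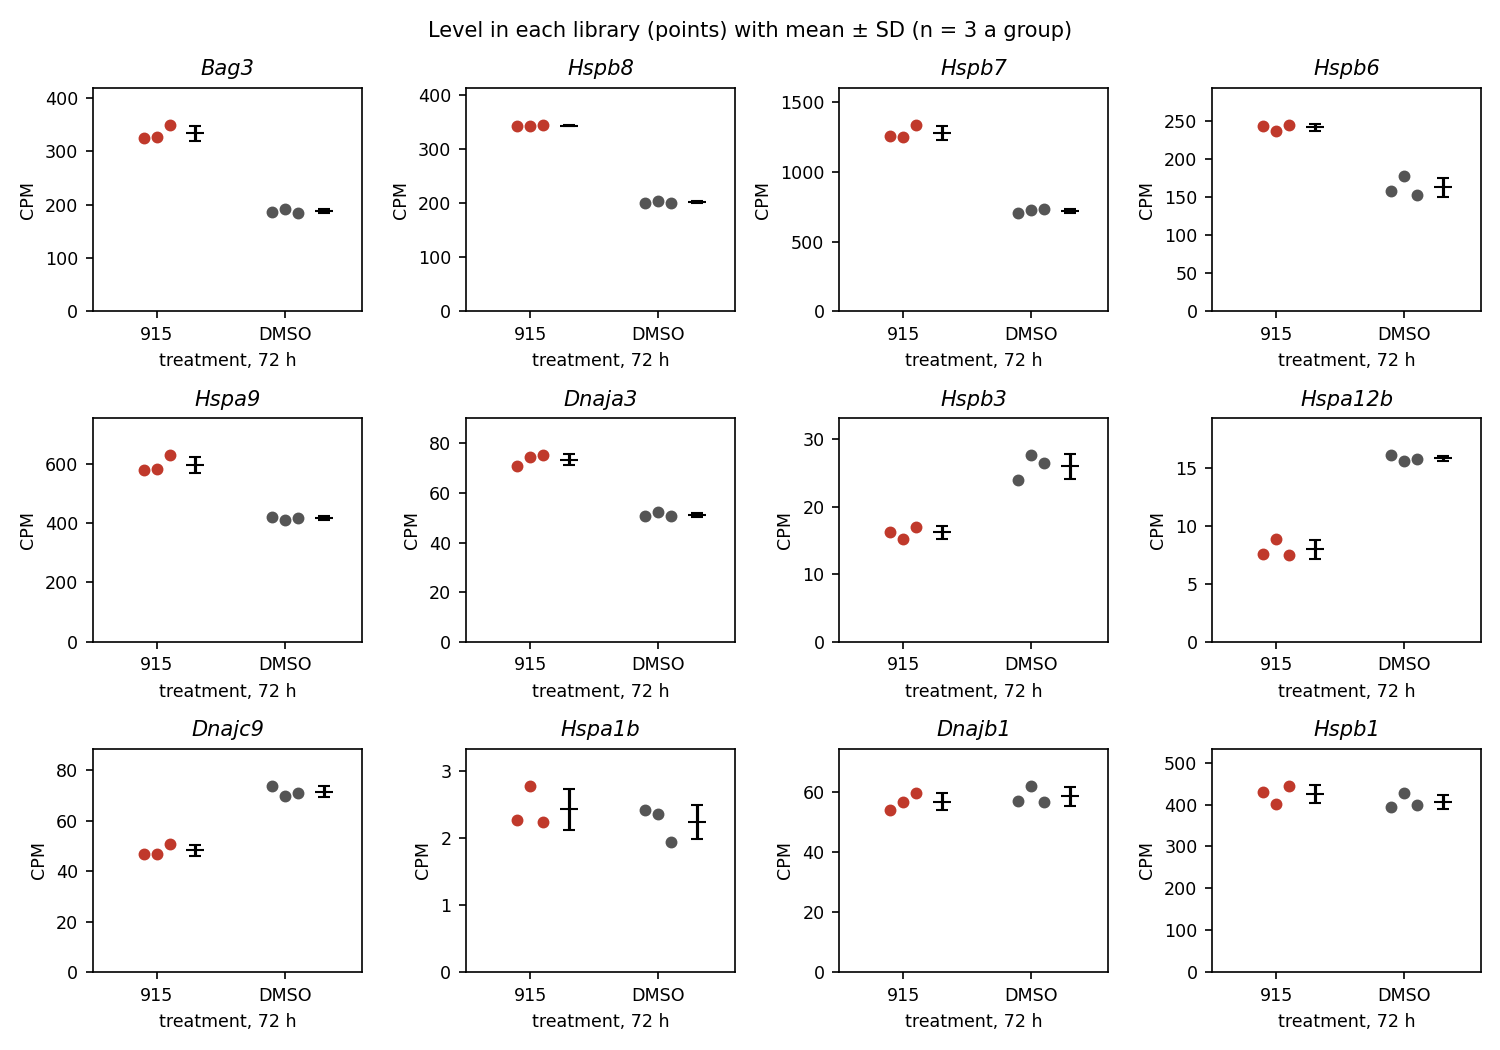
Level in CPM (y axis, from 0) in each library (points) with mean and SD for selected genes, 915 left and DMSO right in each panel (n = 3 a group). The points of Bag3, Hspb7 and Hspb8 do not overlap between treatments, whereas those of Dnajb1 and Hspb1 do.

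Among the remaining BAG genes, Bag6, which guards membrane proteins before insertion, had 341, 329 and 332 CPM with 915, against 285, 301 and 285 CPM with DMSO (log2 0.25, SE 0.0461, adjusted p = 0.000418). Bag1, an exchange factor that couples Hsp70 to the proteasome, had 78.9, 76.4 and 92.9 CPM with 915, against 72.6, 76.9 and 70.9 CPM with DMSO. The groups of Bag1 overlapped, its rise was led by 915 library 3, and its call (log2 0.22, adjusted p = 0.0192) was lost without that library, without DMSO library 1 or 3 and with the authors' library totals in place of TMM, with an adjusted p of 0.00616 to 0.107 over the alternatives. Bag2, Bag4 and Bag5l1 were not called, with log2 fold changes of 0.10, -0.00 and 0.04 (adjusted p = 0.217, 0.977 and 0.734). The RefSeq gene table lists Bag5l1 as another name of Bag5.

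Within the Hsp70 family, Hspa8, Hspa4 and the mitochondrial Hspa9 were called higher, while the heat-inducible pair was at a very low level. Hspa8 (ENSRNOG00000034066), the constitutive cytosolic Hsp70, had 794, 785 and 776 CPM with 915, against 679, 659 and 657 CPM with DMSO. All 915 libraries lay above the DMSO libraries, a 1.22-fold rise (log2 0.29, SE 0.0418, adjusted p = 5.46e-05). Hspa4, an exchange factor of the Hsp110 type, had 358, 363 and 342 CPM with 915, against 290.5, 286 and 307 CPM with DMSO (log2 0.32, SE 0.0471, adjusted p = 7.08e-05). Its relative Hsph1 (Hsp105), which is inducible by heat and counted here as Hsp110, had 101, 97.5 and 99.4 CPM with 915, against 86.3, 91.6 and 94.3 CPM with DMSO. That rise was small (log2 0.18, SE 0.0524, adjusted p = 0.0117) and lost its call without DMSO library 1, with an adjusted p of 0.00674 to 0.0695 over the alternatives. Hspa4l, Hspa2 and Hspa1l, better known from testis, were not called (log2 -0.21, -0.03 and 0.45, adjusted p = 0.197, 0.782 and 0.189).

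Hspa1a and Hspa1b encode the same inducible Hsp70 and are near-identical in sequence, so reads of the pair can be split or lost between them. Hspa1b had 2.28, 2.78 and 2.24 CPM with 915, against 2.42, 2.36 and 1.95 CPM with DMSO, with overlapping groups (log2 0.16, SE 0.192, adjusted p = 0.518). Hspa1a had 2, 3 and 5 counts with 915, against 10, 5 and 10 counts with DMSO, and was too low to be tested. The pair together reached 2.33, 2.87 and 2.36 CPM with 915, against 2.65, 2.48 and 2.20 CPM with DMSO.

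The 2 cytosolic Hsp90 genes are the inducible Hsp90aa1 and the constitutive Hsp90ab1. Hsp90ab1 had 1413, 1378 and 1411 CPM with 915, against 1285, 1276 and 1239 CPM with DMSO, a 1.14-fold rise without overlap (log2 0.19, SE 0.0427, adjusted p = 0.00172). Hsp90aa1 had 462, 541 and 456 CPM with 915, against 470.4, 422 and 503 CPM with DMSO. Its libraries spread widely within both groups and it was not called (log2 0.11, SE 0.0700, adjusted p = 0.198). Its log2 fold change ranged between 0.032 and 0.17 when 1 library was left out, with the lowest value without 915 library 2. Whether the pair differed in response was not tested.

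Of 7 members listed as working in the mitochondrion, 6 (85.7%) were called higher and none lower. The shares were 48.6% and 10.8% over all members and 24.3% and 25.5% over all genes tested. The list was chosen by hand, with earlier results of these data known, and is not complete. Its median log2 fold change was 0.34. Hspa9 (ENSRNOG00000019525), the mitochondrial Hsp70 that pulls proteins through the inner membrane, had 580.2, 583 and 628 CPM with 915, against 422, 410.5 and 419 CPM with DMSO. It rose 1.48-fold without overlap (log2 0.57, SE 0.0469, adjusted p = 2.25e-07). Dnaja3 (ENSRNOG00000003855), its J-domain partner in the matrix, had 71.0, 74.4 and 75.1 CPM with 915, against 50.6, 52.2 and 50.8 CPM with DMSO. The 915 and DMSO libraries formed separate and tight groups, and Dnaja3 also rose 1.48-fold (log2 0.57, SE 0.0535, adjusted p = 7.85e-07). Hspd1, the Hsp60 chaperonin of the matrix, moved less, with 351, 351 and 344 CPM with 915, against 317, 311 and 325 CPM with DMSO (log2 0.18, SE 0.0431, adjusted p = 0.00282). Its co-chaperonin Hspe1 was not analysed here.

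The listed J-domain proteins of the inner membrane and its contact sites all had positive log2 fold changes, and all but Dnajc19 were called higher. Dnajc15, which partners the import motor, had 54.3, 52.5 and 56.1 CPM with 915, against 44.5, 43.8 and 41.5 CPM with DMSO (log2 0.38, SE 0.0574, adjusted p = 8.38e-05). Dnajc11, a partner of the cristae-organising complex, and Dnajc30, which binds the ATP synthase, were called higher at log2 0.24 and 0.34 (adjusted p = 0.00414 and 0.00911), but Dnajc30 lost its call without DMSO library 1 (adjusted p 0.00551 to 0.0508 over the alternatives). Dnajc19, the import motor's other J-domain subunit and a cardiomyopathy gene in humans, had 47.8, 44.7 and 45.5 CPM with 915, against 39.6, 49.4 and 45.0 CPM with DMSO. It was the exception that was not called (log2 0.09, adjusted p = 0.351), with an adjusted p of 0.0452 to 0.963 over the alternatives, under the threshold only without DMSO library 2. A further list of 14 mitochondrial chaperone partners and proteases was also chosen with earlier results of these data known. Of these, 9 (64.3%) were called higher and none lower, with a median of 0.28. Examples are the protease chaperone Clpx, at 85.8 ± 3.51 CPM with 915 and 61.7 ± 1.95 CPM with DMSO (log2 0.52, adjusted p = 2.02e-06), and the inner-membrane protease subunit Afg3l2, at 131 ± 4.55 CPM with 915 and 98.3 ± 2.22 CPM with DMSO (log2 0.47, adjusted p = 2.21e-06).

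**Figure D4:**
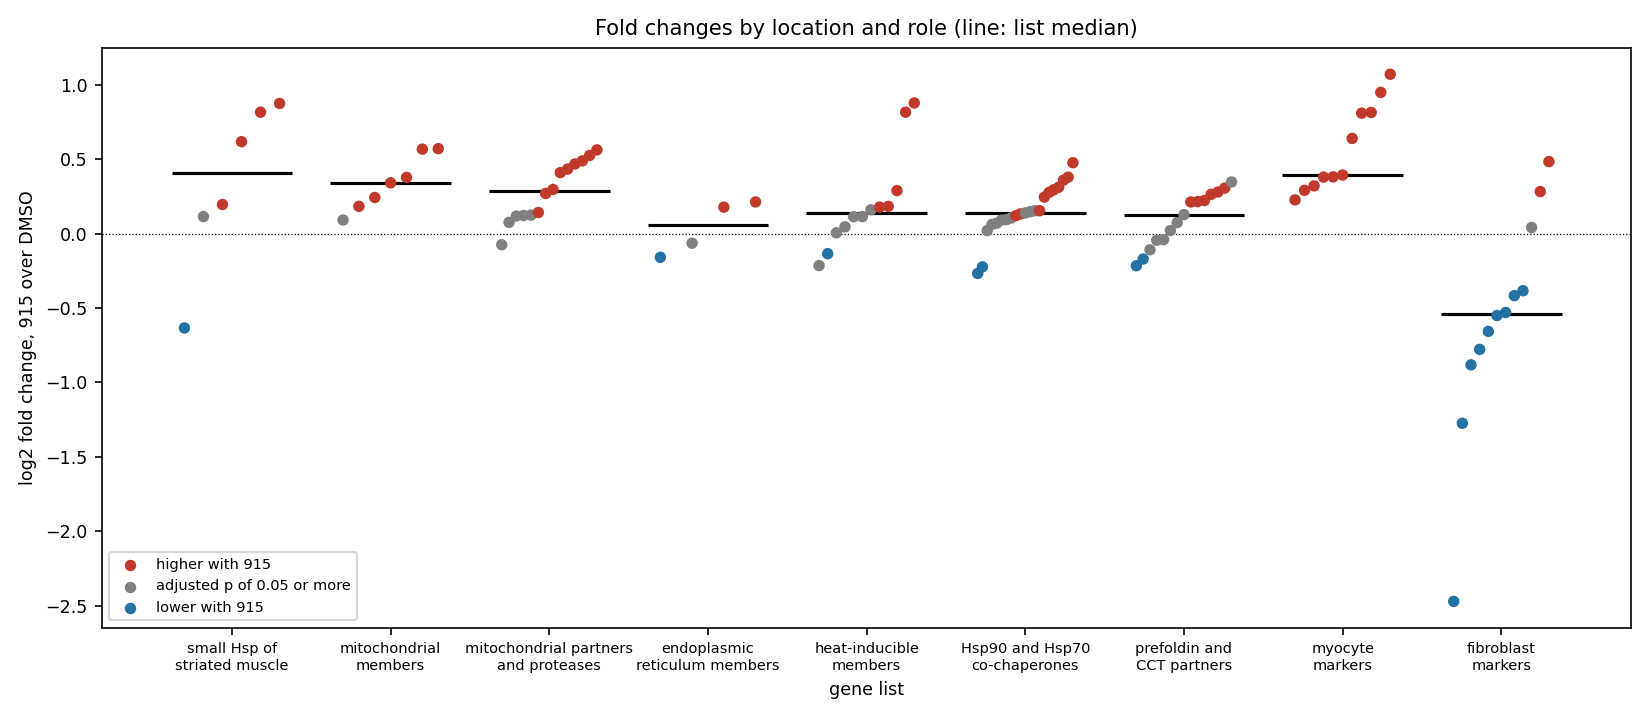
Log2 fold change of 915 over DMSO (y axis) for each tested gene of the lists by location or role (x axis), with a line at each list's median. The listed mitochondrial members and their partners have medians of 0.34 and 0.28. The listed HSF1 targets have 0.14, and the 4 listed members of the endoplasmic reticulum, an incomplete list, have 0.06. That list lacks Dnajb9, Hspa5 and Dnajc3, set aside by the rule, which were called higher at 0.67, 0.29 and 0.26.

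In the cytosol, the DNAJA and DNAJB families supply most J-domain partners of Hsp70. Dnaja2 had 159.8, 156 and 166 CPM with 915, against 126, 128 and 133 CPM with DMSO (log2 0.37, SE 0.0491, adjusted p = 2.62e-05), and Dnaja4 rose by log2 0.33 (adjusted p = 0.000401). Dnaja1, the heat-inducible member, went the other way: 177, 188 and 185 CPM with 915, against 213, 202 and 209 CPM with DMSO. The 3 libraries of 915 lay below those of DMSO, but the change was 1.1-fold (log2 -0.14, SE 0.0463, adjusted p = 0.0254) and the call was lost without 915 library 1 and without DMSO library 1 or 3, with an adjusted p of 0.00436 to 0.132 over the alternatives. Dnajb5, a muscle-rich member that binds class II histone deacetylases in heart, had 58.3, 65.9 and 64.2 CPM with 915, against 49.0, 43.8 and 45.5 CPM with DMSO. It rose 1.41-fold without overlap (log2 0.50, SE 0.0631, adjusted p = 1.64e-05). Dnajb2, which passes ubiquitinated clients to the proteasome, had 101, 99.5 and 109 CPM with 915, against 79.6, 78.4 and 75.1 CPM with DMSO (log2 0.46, SE 0.0539, adjusted p = 7.61e-06). Dnajb6, the Z-disc member mutated in a human limb-girdle muscular dystrophy, had 89.1, 95.3 and 101 CPM with 915, against 81.5, 83.6 and 81.7 CPM with DMSO (log2 0.26, SE 0.0556, adjusted p = 0.00154).

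Smaller rises were seen in Dnajb12 (log2 0.21, adjusted p = 0.00467) and in Dnajb4 (log2 0.20, adjusted p = 0.0123). The call of Dnajb4 was lost with the authors' library totals in place of TMM (adjusted p 0.00874 to 0.0512 over the alternatives). Dnajb1, the classical heat-inducible Hsp40, had 54.1, 56.6 and 59.6 CPM with 915, against 56.9, 62.0 and 56.5 CPM with DMSO. Its groups overlapped and it was not called (log2 0.00, SE 0.0617, adjusted p = 0.954), with a sign that depended on which library was left out. Dnajb13, a sperm and cilium protein, had 27 to 44 counts per library with 915 and 75 to 90 with DMSO, or 0.863, 0.825 and 1.08 CPM with 915, against 2.09, 1.81 and 1.97 CPM with DMSO. It held the largest fall by fold among the called members (log2 -1.03, SE 0.235, adjusted p = 0.00227) at a very low level. Dnajb3 was not called (log2 0.25, adjusted p = 0.191).

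The DNAJC family is the most diverse, and its members share little beyond the J domain. Called higher, beside the 3 mitochondrial genes above, were Dnajc16, Dnajc28, Dnajc4, Dnajc25, Dnajc18 and Dnajc8, with log2 fold changes of 0.45, 0.41, 0.39, 0.38, 0.31 and 0.23. Of these, Dnajc28 lost its call without 915 library 2 (adjusted p 0.00657 to 0.0539 over the alternatives), and Dnajc8, a splicing factor, without 915 library 3 or DMSO library 1 (0.00365 to 0.0725). Dnajc9 (ENSRNOG00000006619), a histone chaperone with a role in DNA replication, fell: it had 47.0, 47.0 and 50.9 CPM with 915, against 73.8, 69.8 and 71.1 CPM with DMSO. No library crossed between the groups, and it was 1.43-fold lower (log2 -0.52, SE 0.0561, adjusted p = 3.2e-06). The other 11 tested genes, among them the synaptic vesicle chaperone Dnajc5 and the endosomal Dnajc13, were not called, with log2 fold changes between -0.24 (Dnajc24) and 0.21 (Dnajc17). Dnajc21 among them had an adjusted p of 0.084, and of 0.0156 to 0.256 over the alternatives, the lowest without 915 library 1.

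The list of members that work in the endoplasmic reticulum was chosen by hand, is not complete and had 4 tested genes. The genes set aside by the rule, Dnajb9, Hspa5 and Dnajc3, are not in it, and all were called higher, as given below. Dnajb12 rose as given above, and Dnajb11, a partner of the luminal Hsp70, had 135, 138 and 155 CPM with 915, against 137, 126 and 128 CPM with DMSO. Dnajb11 overlapped between the groups and its call (log2 0.18, adjusted p = 0.0217) was lost without 915 library 3 or DMSO library 3 and with the authors' library totals (0.0139 to 0.11 over the alternatives). Dnajc10, a luminal disulfide reductase, was called lower, with 119.9, 128 and 121 CPM with 915, against 153, 129 and 143 CPM with DMSO. The gap between the highest 915 and the lowest DMSO library was slight, and the call (log2 -0.16, SE 0.0580, adjusted p = 0.034) was lost without 915 library 1 or 3 and without DMSO library 1 or 3 (0.00331 to 0.175 over the alternatives). Dnajc1 was not called (log2 -0.06, adjusted p = 0.417).

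CCT folds actin and tubulin in a ring of 8 different subunits, encoded by Tcp1, Cct2 to Cct5, Cct6a, Cct7 and Cct8. All 8 had positive log2 fold changes, in a narrow range between 0.05 and 0.26. Cct3 had 224, 216 and 207 CPM with 915, against 189, 182 and 188 CPM with DMSO, the only subunit with a rise of 1.2-fold (log2 0.26, SE 0.0465, adjusted p = 0.00034). Cct5 had 296, 287 and 288 CPM with 915, against 272, 273 and 267 CPM with DMSO (log2 0.15, adjusted p = 0.0109). Cct6a and Cct2 were called at log2 0.15 and 0.14 (adjusted p = 0.036 and 0.0324), but both overlapped between the groups. The calls of these 3 genes were fragile: the number of CCT genes called higher was 4, but 1 without 915 library 1, 2 without 915 library 3, DMSO library 1 or DMSO library 3, and 1 to 5 over all single-library omissions. Over the 10 alternatives the adjusted p ran from 0.00497 to 0.066 for Cct5, from 0.00978 to 0.147 for Cct6a and from 0.0173 to 0.142 for Cct2, while Cct3 kept its call in each. The calls of Cct5, Cct6a and Cct2 were also lost with the authors' library totals.

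Tcp1, Cct4, Cct7 and Cct8 were not called, with log2 fold changes of 0.09, 0.09, 0.10 and 0.05 (adjusted p = 0.134, 0.116, 0.0854 and 0.382). Without DMSO library 2, Cct7 and Tcp1 passed the threshold, at an adjusted p of 0.0463 and 0.0424, whereas over all alternatives these reached 0.375 and 0.482. The testis subunit Cct6b and the processed pseudogene Cct6a-ps2 had under 25 counts in every library and were not called. Of 15 genes for prefoldin, which hands clients to CCT, and other CCT partners, 6 (40%) were called higher and 2 (13.3%) lower. Their median was 0.13, and the shares over all genes tested were 24.3% and 25.5%. Among those called higher were the prefoldin subunit Pfdn6 (log2 0.28, adjusted p = 0.000849) and the CCT regulator Txndc9 (log2 0.31, adjusted p = 0.00146).

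Members listed as heat-inducible targets of HSF1 were set apart to see whether the stress-inducible genes moved together. The list was chosen by hand, with earlier results of these data known. It was matched by symbol, so both genes under the symbol Hspa8 are in it, the first of them described above as constitutive. Of 12 tested, 5 (41.7%) were called higher, 1 (8.33%) was lower and 6 were not called, with a median log2 fold change of 0.14. The shares were 48.6% and 10.8% over all members and 24.3% and 25.5% over all genes tested. Bag3 and Hspb8 were the 2 with large increases, and Hspa8, Hspd1 and Hsph1 rose slightly. Hspa1b, Dnajb1, Hspb1, Hsp90aa1, Hspa4l and the second gene under the symbol Hspa8 were not called, and Dnaja1 was the one called lower. Hsf1 itself was at 41.8 ± 1.91 CPM with 915 and 44.4 ± 1.44 CPM with DMSO and was not called (log2 -0.04, adjusted p = 0.633). Hsf2, a related factor, was at 37.7 ± 1.37 CPM with 915 and 33.2 ± 2.17 CPM with DMSO (log2 0.23, adjusted p = 0.0084), and Hsbp1, a binding protein that restrains HSF1, rose by log2 0.29 (adjusted p = 0.000465). Of the 5 tested genes for heat shock factors and regulators, 2 were called higher and none lower.

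HSF1 binds inverted repeats of a short unit, written here as GAANNTTC or TTCNNGAA, both of which read the same on either strand. Their presence was counted in RefSeq promoter windows of the GRCr8 assembly, from 250 bases before to 50 after the annotated start, which were found for 62 of the 79 distinct symbols. At least 1 of the 2 forms occurred in 19 of the 62 (30.6%), beside 15.4% of all 27457 windows, and in 11 of 29 genes called higher, 1 of 7 called lower and 6 of 22 not called. A 3-unit heat shock element, in which both forms overlap, occurred in 5 of the 62 (8.06%), beside 0.736% of all windows. Those 5 were Cct4, Dnaja1, Hspa8, Hspd1 and Hsph1, of which 3 were called higher, 1 was lower and 1 was not called. The ERR half-site AAGGTCA, searched on both strands, was in 2 of the 62 (3.23%), Dnajb13 and Hspa1l, beside 4.37% of all windows. CCAAT, the box bound by NF-Y, searched on both strands, was in 25 (40.3%), beside 37.7%. A match is a description of letters, and a window without one says nothing about the factor.

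The 9 stretches that follow are each 100 bases of such a window in GRCr8. They belong to the listed heat-inducible targets with a match, among them genes that rose, fell and were not called. Not all marked matches stand before the gene. Those marked in Dnaja1 and Hspa4l start after the annotated start, the last at base 14 and base 38 from it. The later match in Dnajb1 also does, at base 17. Each is written 5′ to 3′ on the gene's own strand, and capitals mark the matches. The first 3 hold a 3-unit element and belong to genes called higher; Dnaja1 holds one and was called lower; Bag3 and Hspb8, with the largest rises, hold a single 2-unit match in this stretch; Hspb1, Dnajb1 and Hspa4l hold 2-unit matches and were not called.
Hspd1, chr9:64084188-64084287, minus strand: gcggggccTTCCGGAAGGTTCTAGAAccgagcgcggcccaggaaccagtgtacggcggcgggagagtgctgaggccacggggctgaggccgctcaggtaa
Hsph1, chr12:10427288-10427387, plus strand: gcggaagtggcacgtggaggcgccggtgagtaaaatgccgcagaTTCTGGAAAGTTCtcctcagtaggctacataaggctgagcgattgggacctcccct
Hspa8, chr8:50080415-50080514, plus strand: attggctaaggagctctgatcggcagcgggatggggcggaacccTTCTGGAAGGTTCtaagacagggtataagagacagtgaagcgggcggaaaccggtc
Dnaja1, chr5:60638354-60638453, plus strand: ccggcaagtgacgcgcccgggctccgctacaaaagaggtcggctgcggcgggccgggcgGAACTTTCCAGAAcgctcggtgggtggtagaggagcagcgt
Bag3, chr1:192533282-192533381, plus strand: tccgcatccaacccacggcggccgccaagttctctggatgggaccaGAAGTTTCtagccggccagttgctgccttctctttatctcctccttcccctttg
Hspb8, chr12:45837239-45837338, plus strand: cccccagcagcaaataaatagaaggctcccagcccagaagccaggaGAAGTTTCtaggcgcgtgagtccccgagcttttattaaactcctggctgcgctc
Hspb1, chr12:26432357-26432456, minus strand: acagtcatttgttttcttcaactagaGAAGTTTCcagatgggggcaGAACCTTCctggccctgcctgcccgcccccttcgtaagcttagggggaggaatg
Dnajb1, chr19:41431092-41431191, minus strand: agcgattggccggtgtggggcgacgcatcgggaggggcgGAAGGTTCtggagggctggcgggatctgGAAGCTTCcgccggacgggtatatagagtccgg
Hspa4l, chr2:125668296-125668395, plus strand: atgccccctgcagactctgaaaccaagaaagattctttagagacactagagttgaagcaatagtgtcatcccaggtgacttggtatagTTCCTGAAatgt

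Besides Dnajb13, Hspb3, Dnajc9, Dnaja1 and Dnajc10, described above, 3 members of the Hsp70 family were called lower. Hspa12b (ENSRNOG00000021244), a distant relative known mainly from endothelial cells, had 7.56, 8.93 and 7.50 CPM with 915, against 16.1, 15.7 and 15.8 CPM with DMSO. Every 915 library was far below the DMSO libraries, with 8.00 ± 0.806 CPM with 915 and 15.9 ± 0.238 CPM with DMSO (SD, n = 3 each), 1.92-fold lower (log2 -0.94, SE 0.0944, adjusted p = 1.47e-06). Hspa12a (ENSRNOG00000018019), its paralogue, had 6.91, 8.16 and 6.74 CPM with 915, against 13.8, 13.8 and 13.1 CPM with DMSO. It too separated fully, 1.81-fold lower (log2 -0.85, SE 0.101, adjusted p = 7.65e-06). The endothelial, fibroblast and smooth muscle marker sums given above were also lower with 915, and their part in these changes was not tested. Hspa14, a ribosome-bound member, had 27.5, 26.5 and 29.9 CPM with 915, against 33.9, 31.8 and 32.8 CPM with DMSO. That difference was small (log2 -0.18, SE 0.0668, adjusted p = 0.0367) and lost its call under DESeq2, without 915 library 1 or 2 and without DMSO library 1 or 3, with an adjusted p of 0.0109 to 0.132 over the alternatives.

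**Figure D5:**
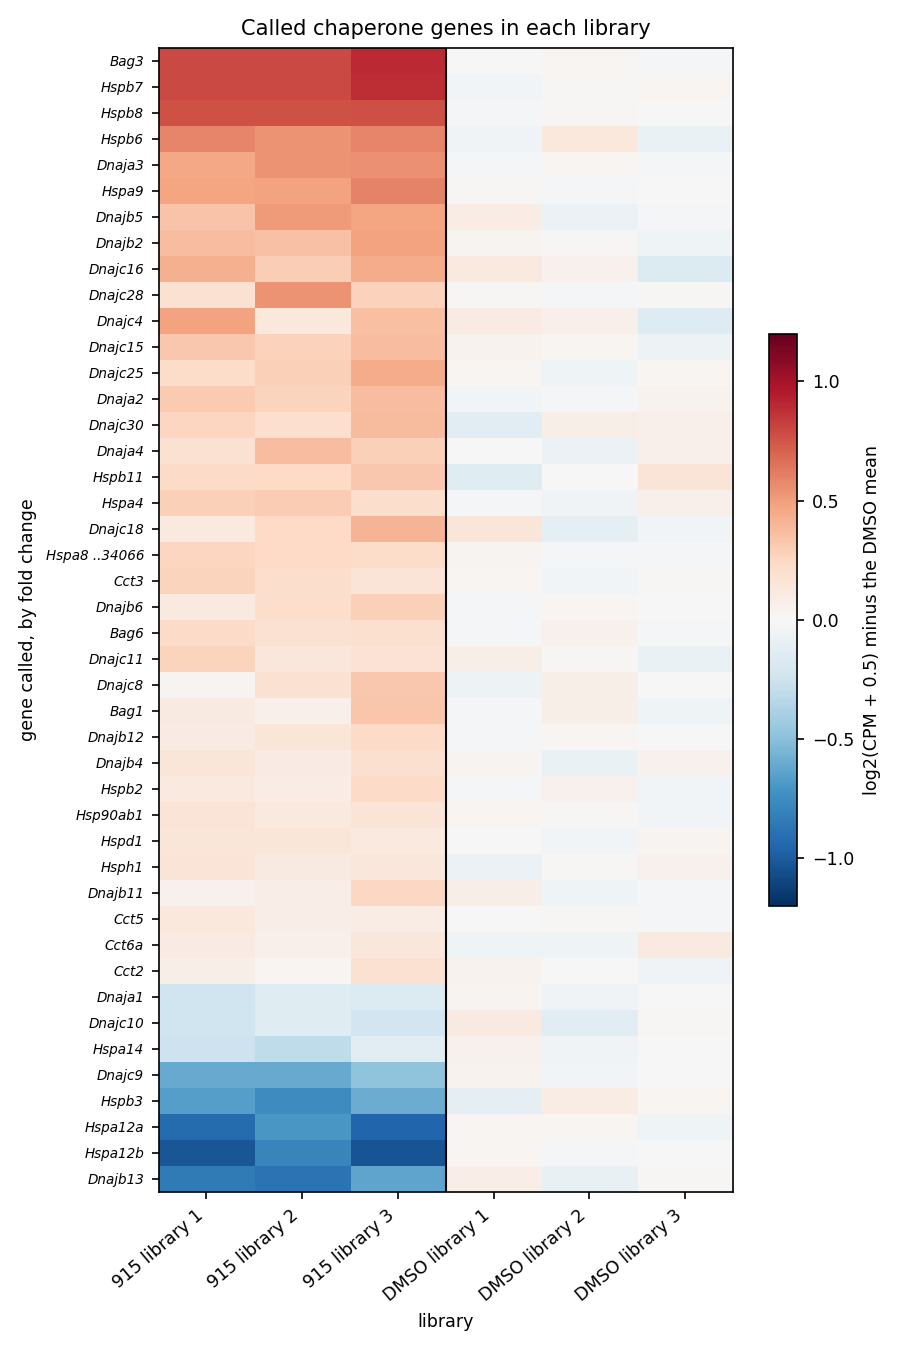
Log2(CPM + 0.5) minus the DMSO mean in each library (columns, 915 left and DMSO right) for every called gene (rows, ordered by fold change). The 915 columns are darkest red in the rows of Bag3, Hspb7 and Hspb8 and darkest blue in those of Hspa12a, Hspa12b and Dnajb13.

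Chaperone genes outside the symbol pattern were also counted. Of 21 tested co-chaperones of Hsp90 and Hsp70, 10 (47.6%) were called higher and 2 (9.52%) lower, with a median of 0.14. Over all genes tested the shares were 24.3% and 25.5%. Unc45b, the muscle co-chaperone that folds myosin with Hsp90, was at 176 ± 2.92 CPM with 915 and 131 ± 1.89 CPM with DMSO (log2 0.48, adjusted p = 7.78e-07), and Smyd2, a methyltransferase that acts on Hsp90 at titin, rose by log2 0.38 (adjusted p = 5.41e-05). In a list of 16 other chaperones, 6 (37.5%) were called higher and 1 (6.25%) lower, with a median of 0.07. The one lower gene was Serpinh1, the collagen chaperone also called Hsp47, at 1213 ± 62.4 CPM with 915 and 2026 ± 33.2 CPM with DMSO (log2 -0.69, adjusted p = 3.88e-08). The fibroblast marker sums given above were also lower with 915, though 2 of the 12 markers were called higher. Their part in the fall of Serpinh1 was not tested. Among the higher ones were Dnajb9, at log2 0.67 (adjusted p = 2.42e-07), and the luminal Hsp70 Hspa5 and its partner Dnajc3, at 0.29 and 0.26 (adjusted p = 0.00017 and 0.000734), which the choice of members leaves out.

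The 7 members not tested had almost no reads. Hspa1a is described above, Dnajb8 was at 0 in all 6 libraries, and Dnajb7 had 4 to 10 counts per library. Dnajc5b and Dnajc5g had 0 to 5 counts, and the 2 genes under the symbol Cct8l1 had a single count in 1 DMSO library and 0 elsewhere. The second gene under the symbol Hspa8 (ENSRNOG00000032585) was tested and not called, at 7.08 to 12.6 CPM with 915 and 8.17 to 12.1 CPM with DMSO (log2 0.04, adjusted p = 0.855). Hspa8 has many processed copies in mammals, so reads may be shared between the 2. The strand setting of the counting is not given in the sources used here, and 38 of the 76 symbols matched in the RefSeq gene table overlap another gene there, among them Hspb2 with Cryab, Hspa1a with Hspa1l and Hspb6 with Lin37. Reads of such neighbours may therefore be shared too.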

How the data were processed

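RNA of 6 cultures (3 with 915, 3 with DMSO) was sequenced. The submitters' processing notes name STAR 2.5.1a, Subread featureCounts 1.4.6-p5 and the rat build Rnor_6.0. Whether counting used strand, and how multi-mapping reads were handled, is not given in these sources. The authors deposited a table of raw counts per gene and a CPM table, which divides those counts by 1 total per library. The count table covers 93.1% to 93.7% of these totals. Of its 22641 rows, 993 were repeats of a gene with equal counts and were dropped.

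Counts were filtered with filterByExpr, scaled by TMM and fitted on treatment alone with edgeR 4.0.16 in R 4.3.3, using its quasi-likelihood test and Benjamini-Hochberg adjustment over every tested gene. An SE is the size of the log2 fold change over the root of its F statistic. TMM moved fold changes slightly upward relative to ratios of deposited CPM. The biological coefficient of variation was 6.84%. The method was checked on simulated counts with few changed genes, balanced in direction and larger in size than most changes of the members. That check does not cover data with as many changed genes as here, or changes as small as most of the members show. Chi-square per degree of freedom between libraries of a group was 5.45 to 11.6, so none is a copy. The titles call the replicates biological without naming separate isolations, so p-values measure the spread between these cultures, part of which may be technical.

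The members and lists were chosen with earlier results of these data known. Named were a fixed set of well-known members, the 4 highest and 4 lowest called, the 2 smallest p in each family, the untested and the exceptions of a count; the remaining members are named to account for each. Outside them, Hsf1, Hsf2, Cryab and up to 2 genes of each list were named, with Hspa5 and Dnajc3 added because the rule sets them aside. Alternatives were DESeq2 1.42.0, the authors' totals without TMM, no filter, replicate number as a block, and each library left out in turn, 10 in all. Promoter windows came from RefSeq (GRCr8).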

Additional observations from a re-analysis of the deposited data

How the results depend on the processing

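Over the 10 alternatives, 25 of the 36 calls of higher and 5 of the 8 calls of lower were kept in each. With the authors' library totals in place of TMM, the median log2 fold change over all genes moved to -0.06 and that over the members to 0.13, with 0.13 for the mitochondrial chaperonin, 0.30 for DNAJA, 0.11 for DNAJC, 0.072 for CCT, 0.11 for BAG and -0.0021 for Hsp70. With that scaling 1 CCT gene was called higher, and the signs of Dnajb1 (-0.044) and of the second Hspa8 gene (-0.0021) turned. Under DESeq2 that of Bag4 turned (0.0011). The replicate numbers did not pair the libraries, since the deviations of same-numbered libraries correlated at -0.144, -0.407 and -0.252 over 10146 genes. Differently numbered libraries correlated at -0.126 (915 library 1 with DMSO library 3) to 0.344 (915 library 2 with DMSO library 3). Whether another matching links the groups was not tested. With the replicate number as a block, 5 members were called lower, 0 in DNAJA and 1 in DNAJC, and 2 CCT genes higher. The calls not made with the block were those of Hspa14, Dnaja1, Dnajb11, Dnajc10, Cct6a, Cct2 and Bag1.

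With 1 library left out, 29 to 39 members were called higher and 5 to 8 lower. The same ranges were 0 to 1 higher in Hsp110, 1 to 5 higher in CCT, 1 to 2 lower in the small heat shock proteins, 0 to 1 lower in DNAJA and 1 to 2 lower in DNAJC. Medians ranged from 0.0030 to 0.21 in Hsp70, 0.13 to 0.16 in DNAJC, 0.11 to 0.18 in BAG and 0.15 to 0.19 over all members. Among the named genes, signs turned for 4 that were not called: the second Hspa8 gene (-0.14 to 0.25), Dnajb1 (-0.034 to 0.057), Cct6b (-0.15 to 0.30) and Bag4 (-0.098 to 0.057). Apart from what a setting's own construction gives, the cause was not tested. Depth limits Hspa1a, Hspa1b, Hspb9, Dnajb13 and the untested members.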
